A study of Mus musculus with 12 samples.

Results

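The cells described here are tumour T cells whose T cell receptor beta chain (TRB) carries a CDR3 of 17 or more amino acids, counted with both end residues. They were taken from cell barcodes with exactly 1 TRB chain and 1 or 2 alpha (TRA) chains. Of 19115 such paired cells, 754 had a loop this long, and of 10624 clonotypes 329 did. A clonotype is a set of cells of 1 library with the same TRBV and TRBJ segments and CDR3 bases and a TRA chain in common. Long loops were compared with middle loops of 13 to 15 amino acids, carried by 13922 cells in 7811 clonotypes.

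T cells assemble the beta chain gene from V, D and J segments, and enzymes trim and extend the segment ends at each joint. CDR3 spans these joints and, with its alpha counterpart, usually lies over the peptide held by the MHC molecule. The mouse has 2 D segments, TRBD1 and TRBD2. TRBD1 lies upstream of both J clusters and can join either of them, whereas TRBD2 lies between the TRBJ1 and TRBJ2 clusters and is normally joined to TRBJ2. The D segments are rich in guanine, and all their forward reading frames can encode glycine, a residue without a side chain that lets a loop bend.

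The T cells came from tumours of C57BL/6J mice aged 6 to 8 weeks, inoculated under the skin with 300000 cells of a line derived from MC38, a mouse colon carcinoma. The labels give this line a p53 knockout together with a p53 substitution, and the substitution in its name is a different one from that in the protocol. On day 10, at a tumour size of about 50 to 100 mm³, each tumour was injected with 40 µg of its treatment, LNP-Ctrl in one arm and LNP-P20-mAb in the other. The series concerns an antibody to frequently mutated p53, and its design asks how tumour T cells and NK cells differ between treatments. About 10000 sorted CD45+ cells per sample were processed, with 3 receptor libraries per treatment, and 6 expression samples were not analysed here. The labels do not tie libraries to animals, and p-values reflect only how far these libraries spread, which may be technical. Values per library are listed below in the order 1, 2 and 3 of each treatment.

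The 6 libraries held 5050 to 9982 chains on 2446 to 4869 barcodes, with 85835 to 145847 unique molecular identifiers (UMIs). All chains were TRA or TRB, with 0 of 48792 from gamma-delta or B cell receptors. The paired cells met the definition of alpha-beta T cells by the choice of barcodes, so their identity was not tested. Many clones were found in both LNP-P20-mAb 1 and LNP-P20-mAb 2, which are therefore given apart and merged. Sign-flip tests over 6 libraries count the pair as 2 units, and with it merged no sign-flip p can fall below 0.0625. They had 3 long clonotypes in common, which held 229 of 245 long-loop cells in LNP-P20-mAb 1 (93.5%) and 117 of 126 in LNP-P20-mAb 2 (92.9%). Any 2 libraries had 11 to 29 cell barcodes in common, and 0 of these belonged to long-loop cells in both. With that pair merged there were 326 long clonotypes, of which 3 paired the alpha segments of invariant NKT cells and 0 those of MAIT cells, which allows a share of up to 0.920%.

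Long loops are easiest to read from their bases, which begin with the end of the V segment, pass through a centre of D and added bases, and end with the start of the J segment. The 2 D consensus sequences come first, built from stretches that recur in the deposited loops. No reference was used, so their ends may include bases that are not part of the D segment. The next sequences are the TRBD2-called long loops with the longest TRBD2 match in each reading frame, shown because TRBD2 was the most frequent D call in long loops. Capitals mark the longest stretch of the centre that is identical to the TRBD2 consensus.
TRBD1 consensus: ccgggacagggggcg
TRBD2 consensus: gggactgggggggcgc
Gly-Thr frame, TRBV13-1 and TRBJ2-7, LNP-Ctrl 2: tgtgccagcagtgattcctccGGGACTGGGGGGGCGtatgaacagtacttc
Asp-Trp frame, TRBV13-3 and TRBJ2-5, LNP-Ctrl 3: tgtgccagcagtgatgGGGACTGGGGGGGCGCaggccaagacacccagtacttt
Gly-Leu frame, TRBV12-2+TRBV13-2 and TRBJ2-7, LNP-Ctrl 1: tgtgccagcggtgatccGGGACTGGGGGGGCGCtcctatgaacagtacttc

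The frames of TRBD2 read Gly-Thr-Gly-Gly, Asp-Trp-Gly-Gly and Gly-Leu-Gly-Gly in these 3 loops, which matched 15, 16 and 16 bases of the TRBD2 consensus. The longest loop of each library had 18, 19 and 20 amino acids in the LNP-Ctrl libraries and 20, 18 and 19 in the LNP-P20-mAb libraries. All 6 matched at least 8 bases of the TRBD2 consensus. The LNP-Ctrl 1 loop used TRBJ1-6, to which TRBD2 is not normally joined, and neither it nor the LNP-P20-mAb 1 loop had a D call. The V segments of the 6 loops were TRBV12-2+TRBV13-2, TRBV31 and TRBV1, and TRBV2, TRBV12-2+TRBV13-2 and TRBV16. The loop of 20 amino acids in LNP-Ctrl 3 matched 13 bases of the TRBD2 consensus, read Asp-Trp-Gly-Gly and is shown as the upper end of the range.
TRBV1 and TRBJ2-2, LNP-Ctrl 3: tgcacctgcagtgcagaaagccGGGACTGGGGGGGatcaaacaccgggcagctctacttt
Long loops were long mainly in the centre, which measured 18.03 ± 0.513 bases in long and 11.1 ± 0.0971 bases in middle loops (SD over 6 libraries). The part that matched the V consensus was 14.5 bases against 13.4, and the part that matched the J consensus 19.3 against 17.6. These 3 differences, of 6.88, 1.09 and 1.64 bases, follow from the choice by length and were not tested.

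Beta CDR3 lengths peaked at 14 amino acids in every library, and long loops formed the upper tail. Long clonotypes made up 3.17%, 2.88% and 2.84% of clonotypes in the LNP-Ctrl libraries and 3.38%, 3.00% and 4.06% in the LNP-P20-mAb libraries. The ranges of the treatments overlapped. The means were 2.96% ± 0.179 and 3.48% ± 0.538 (SD, n = 3 each), a difference of 0.519 percentage points with an exact permutation p = 0.2 (two-sided, 20 assignments, smallest possible p 0.1). Most long loops had exactly 17 residues. With the shared pair merged there were 252 clonotypes of 17, 58 of 18 and 16 of 19 or more amino acids, and 990 of 16 lay just below the threshold.

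**Figure D1:**
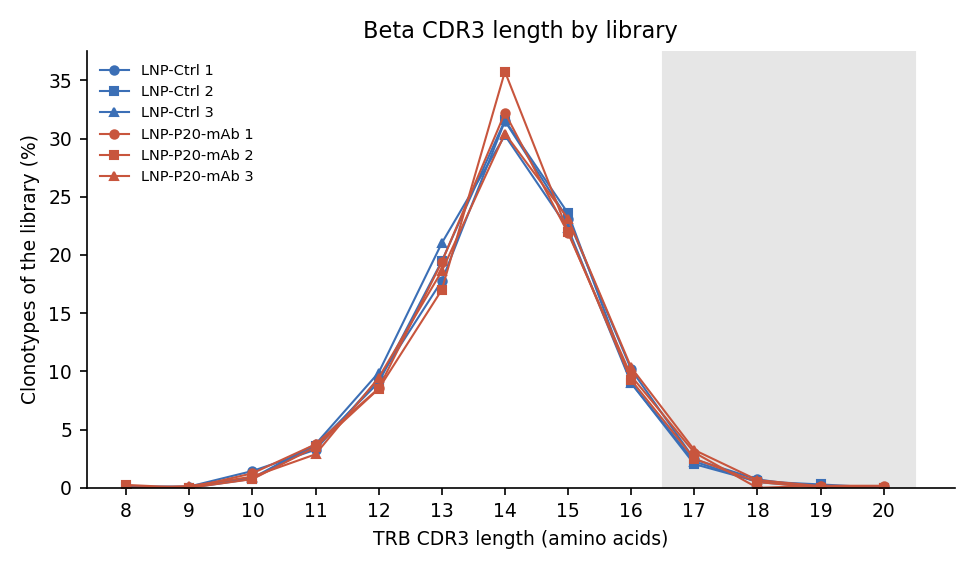
Share of a library's clonotypes (y axis, percent) at each beta CDR3 length in amino acids (x axis), 1 line per library, with long loops shaded. The lines nearly coincide, and long loops take 2.84% to 4.06% of clonotypes.

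Counted by cells, long loops were most frequent in LNP-P20-mAb 1 and 2, where 1 clone carried most of them. Their share of paired cells was 2.10%, 2.65% and 3.45% in the LNP-Ctrl libraries and 7.51%, 6.25% and 2.81% in the LNP-P20-mAb libraries. LNP-P20-mAb 3 lay within the LNP-Ctrl range, and the treatments did not differ beyond their spread (2.73% ± 0.680 against 5.52% ± 2.43, n = 3 each, exact permutation p = 0.2). The largest long clone held 216 of 245 long-loop cells in LNP-P20-mAb 1 (88.2%) and 95 of 126 in LNP-P20-mAb 2 (75.4%). Without the largest long clone of each library, a setting added once the data had been seen, the shares were 1.86%, 2.40% and 2.93% against 0.952%, 1.61% and 2.37%. The difference between treatments then had the opposite sign (-0.755 percentage points, exact permutation p = 0.2).

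**Figure D2:**
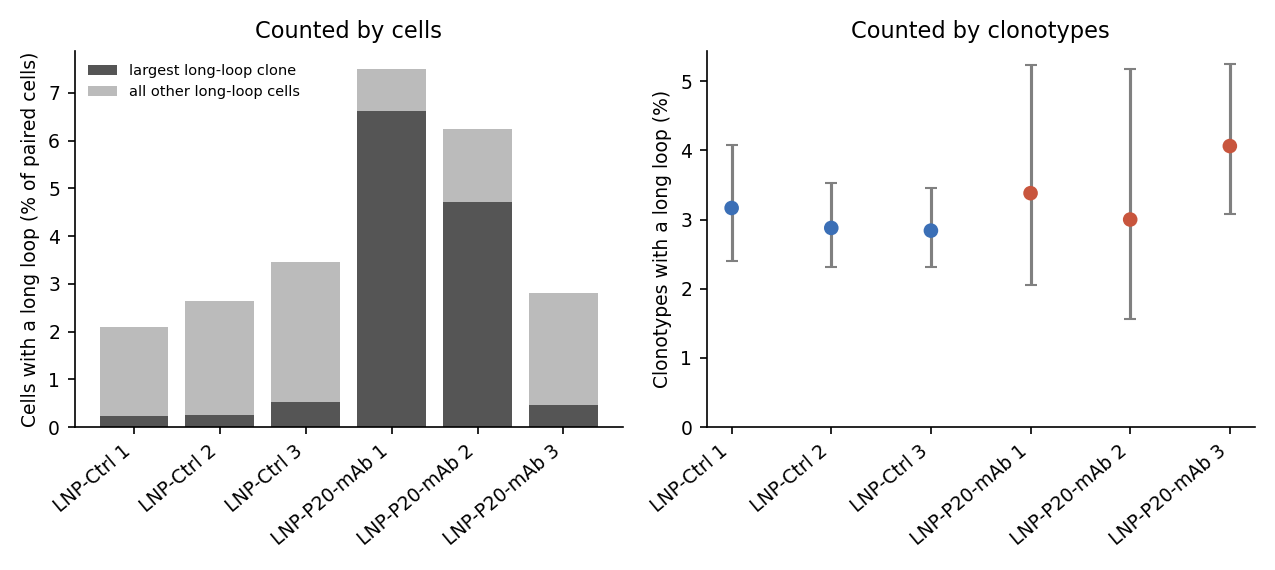
Long-loop share of paired cells (left, percent, bars split into the largest long clone and all other long-loop cells) and of clonotypes (right, percent, with exact 95% binomial intervals that cover counting error only) in each library. One clone fills most of the bars of LNP-P20-mAb 1 and 2, at 7.51% and 6.25%, while the clonotype shares lie between 2.84% and 4.06%.

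The leading long clones differed in how much D sequence they held. The clone that leads LNP-P20-mAb 1 and 2 joined TRBV1 to TRBJ2-5 and paired with TRAV12-2 and TRAJ23. It made up 6.62% of cells in LNP-P20-mAb 1 (exact 95% binomial interval 5.79% to 7.53%) and 4.71% in LNP-P20-mAb 2 (3.83% to 5.73%). LNP-Ctrl 3 was led by a TRBV13-1, TRBJ2-4 loop of 20 cells with TRAV16N, and LNP-P20-mAb 3 by a TRBV2, TRBJ2-4 loop of 13 cells, also with TRAV16N. These are shown with their TRBD2 stretches in capitals.
TRBV1 and TRBJ2-5, LNP-P20-mAb 1 and 2: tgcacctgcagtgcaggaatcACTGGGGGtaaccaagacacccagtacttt
TRBV13-1 and TRBJ2-4, LNP-Ctrl 3: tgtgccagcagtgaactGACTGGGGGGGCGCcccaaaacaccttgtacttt
TRBV2 and TRBJ2-4, LNP-P20-mAb 3: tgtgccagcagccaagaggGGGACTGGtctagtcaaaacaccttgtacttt
The TRBD2 stretch was 8 bases in the first, 14 in the second and 8 in the third, and the submitters' pipeline gave a D call only to the second. LNP-Ctrl 1 and 2 were led by clones of 8 and 10 cells whose longest D match, of 8 bases, was to TRBD1. The LNP-Ctrl 1 clone joined TRBV1 to TRBJ2-3, had 0 glycines in its loop and used TRAV9N-3. The LNP-Ctrl 2 clone joined TRBV2 to TRBJ1-3.

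Long loops were called as TRBD2 more often than middle loops in every library. The share of clonotypes with a TRBD2 call was 33.3%, 34.8% and 39.2% of long loops in the LNP-Ctrl libraries and 21.1%, 8.33% and 43.6% in the LNP-P20-mAb libraries. In middle loops it was 7.37%, 7.93% and 6.80%, and 9.44%, 8.03% and 7.88%. LNP-P20-mAb 2, with 1 call among 12 long clonotypes, was the only library whose long loops fell within the range of the middle loops. The means were 30.1% ± 13.1 and 7.91% ± 0.880, a difference of 22.2 ± 13.5 percentage points (SD, n = 6). The exact sign-flip permutation p was 0.031, the smallest that 64 flips allow, and 0.0625 after Benjamini-Hochberg adjustment over the 6 planned measures. With LNP-P20-mAb 1 and 2 merged, the exact sign-flip p was 0.0625, the smallest that 32 flips allow, and 0.125 after the same adjustment. A D call rests on bases of the centre, which the choice by length makes longer in long loops. Tests of D calls are therefore not independent of that choice, and a comparison at equal centre length is given below.

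Fewer long loops lacked a D call, a comparison that is likewise not independent of the choice by length. The share without one was 57.4% ± 11.9 of long and 76.6% ± 1.21 of middle clonotypes, lower in 6 of 6 libraries (exact sign-flip p = 0.031, adjusted 0.0625). TRBD1 calls were also less frequent in long loops, at 12.6% ± 2.43 against 15.5% ± 1.60 (lower in 6 of 6, exact sign-flip p = 0.031), but the difference was -1.17 percentage points within TRBJ segments (exact sign-flip p = 0.219) and 1.86 with loops of 16 counted as long (exact sign-flip p = 0.09375). The TRBD1 call and 14 other measures were added after the data were seen. Adjusted over those 15 the smallest p is 0.0469, and over all 21 measures 0.0505. With the shared pair merged, the smallest sign-flip p adjusted over those 15 is 0.09375.

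Read directly from the bases, most long loops held a stretch of the TRBD2 consensus. A run of 8 or more bases identical to the TRBD2 consensus, on the coding strand within the centre, was present in 70.2%, 68.5% and 67.0% of long loops of the LNP-Ctrl libraries and in 78.9%, 83.3% and 80.0% of those of the LNP-P20-mAb libraries. Middle loops held it in 21.3% to 27.5%, with no overlap (74.7% ± 6.90 against 24.0% ± 2.33, higher in 6 of 6, exact sign-flip p = 0.031). The run has to fit within the centre, which the choice by length makes longer in long loops. The direction of this test is therefore not independent of that choice, and a comparison at equal centre length is given below. No stretch of 8 bases occurs in both D consensus sequences. Of 169 long loops without a D call, 110 (65.1%) held such a run, against 18.9% of 5911 uncalled middle loops. In LNP-P20-mAb 2, where 1 long loop had a TRBD2 call, 10 of 12 held a run.

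TRBD2 followed the J cluster in long loops as in the rest of the repertoire. With the shared pair merged, 0 of 50 long loops with TRBJ1 had a TRBD2 call (a share of up to 6.00% is allowed) and 117 of 276 with TRBJ2 did (42.4%). In middle loops the counts were 4 of 2595 and 581 of 5122 (11.3%). TRBD1 was called in 19 of 50 long TRBJ1 loops (38.0%) against 21.2% of middle ones, and in 7.61% of long TRBJ2 loops against 13.1%. The TRBD2 run was present in 3 of 50 long TRBJ1 loops (6.00%), which gives the level of matches where TRBD2 is not normally joined, and in 83.3% of long TRBJ2 loops. TRBJ2 made up 84.7% of long and 66.4% of middle clonotypes. Within TRBJ2 alone, a comparison added later, the TRBD2 call was more frequent in long loops by 24.2 percentage points (higher in 5 of 6 libraries, exact sign-flip p = 0.0625).

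The differences in TRBD2 were smaller once the length of the centre was matched. Long and middle loops were compared within bins of equal centre length, a setting added once the data had been seen. Long loops in bins without a middle loop of their library were left out. This kept 51 of 57, 80 of 89 and 93 of 97 long clonotypes in the LNP-Ctrl libraries. In the LNP-P20-mAb libraries it kept 18 of 19, 12 of 12 and 55 of 55. The TRBD2 call was then 5.29 percentage points lower in long loops (exact sign-flip p = 0.594). This sign came from LNP-P20-mAb 2, with 1 call among 12 long clonotypes, and without it the mean was 0.957 points higher in long loops. The shares in long and matched middle loops were 29.4% and 27.9%, 32.5% and 33.4%, and 36.6% and 39.1% in the LNP-Ctrl libraries. In the LNP-P20-mAb libraries they were 22.2% and 23.8%, 8.33% and 44.9%, and 43.6% and 35.4%, so that long loops were lower in 4 of 6 libraries. The excess of the TRBD2 run shrank from 50.7 to 5.24 percentage points (exact sign-flip p = 0.0625), or 2.98 without LNP-P20-mAb 3, and uncalled D segments were 10.97 points more frequent in long loops (6 of 6 libraries, exact sign-flip p = 0.031).

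**Figure D3:**
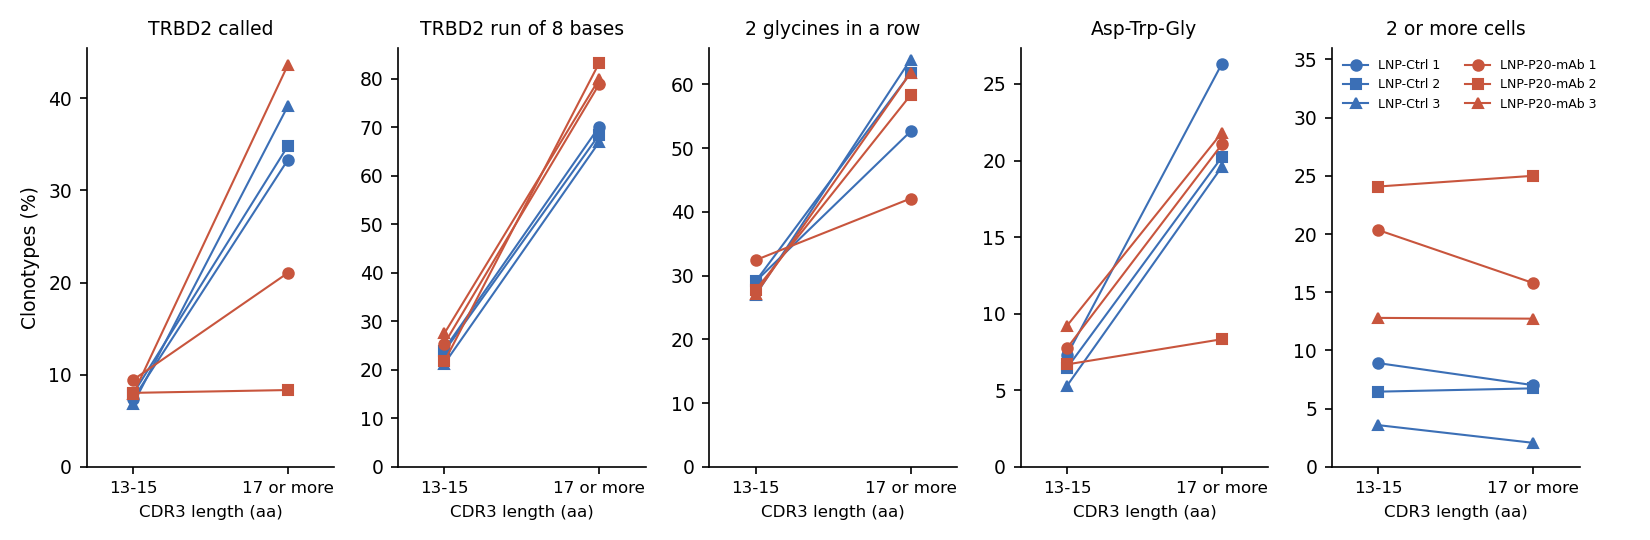
Percent of clonotypes (y axes) with each feature in middle (13 to 15 amino acids) and long (17 or more) loops, 1 line per library, coloured by treatment (blue LNP-Ctrl, red LNP-P20-mAb). Before centre length is matched, the TRBD2 run climbs from 24.0% to 74.7% on average with no overlap, whereas clones of 2 or more cells average 12.7% and 11.6%.

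Glycine was slightly more frequent in the centre of long loops. The share of glycine among centre residues was 29.0%, 30.9% and 32.3% in long loops of the LNP-Ctrl libraries and 30.7%, 36.1% and 30.7% in those of the LNP-P20-mAb libraries, against 28.0% to 29.7% in middle loops. It was higher in long loops by 3.01 ± 2.66 percentage points (6 of 6 libraries, exact sign-flip p = 0.031, adjusted 0.0625). Within bins of equal centre length the difference was -0.149 points (exact sign-flip p = 0.906), and -1.05 to 0.752 with 1 library left out. With the first 4 and last 5 residues removed in place of the V and J parts it was 0.460 points (exact sign-flip p = 0.5625).

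Per loop, glycines numbered 2.41 ± 0.177 in long and 1.502 ± 0.0343 in middle loops, a count that a longer loop can raise on its own. With the shared pair merged, 12 of 326 long loops had no glycine (3.68%) against 15.8% of middle loops, and 46.0% had 3 or more against 14.8%. A pair of adjacent glycines was present in 56.8% ± 8.20 of long and 28.8% ± 2.03 of middle loops, higher in 6 of 6 libraries (exact sign-flip p = 0.031). At equal centre length this difference was 3.94 percentage points (exact sign-flip p = 0.1875). A run of 3 glycines was present in 8.09% and 3.67%.

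The 3 frames of TRBD2 differ in their residues, but Thr-Gly-Gly can also be read from the TRBD1 consensus and so does not mark TRBD2. Asp-Trp-Gly was present in 19.6% ± 5.99 of long and 7.12% ± 1.32 of middle loops and Leu-Gly-Gly in 19.01% ± 6.81 and 5.84% ± 0.918, each higher in 6 of 6 libraries (exact sign-flip p = 0.031). Thr-Gly-Gly, which TRBD1 and TRBD2 can both encode, was present in 11.3% ± 3.802 and 6.80% ± 0.581 (5 of 6, exact sign-flip p = 0.09375). Among the 117 long loops called as TRBD2 with the pair merged, 42.7% read the Asp-Trp frame, 38.5% the Gly-Leu frame and 18.8% the Gly-Thr frame. Among 585 middle loops these were 50.6%, 24.4% and 25.0%, and the difference was not tested. At equal centre length the long minus middle difference was -6.66 percentage points for Asp-Trp-Gly (exact sign-flip p = 0.1875) and -6.55 for Thr-Gly-Gly (6 of 6 lower, exact sign-flip p = 0.031), and for Leu-Gly-Gly it was 5.56 (exact sign-flip p = 0.3125). Without LNP-P20-mAb 2 the Asp-Trp-Gly value was -2.84.

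Of 20 residues in the centre, 2 were more frequent in long loops in every library and 3 less frequent. Glycine was one of the former, and tryptophan, which TRBD2 encodes in the Asp-Trp frame, the other, at 6.06% ± 1.53 of long against 3.85% ± 0.824 of middle centre residues. Glutamine took 1.84% against 3.49%, histidine 0.345% against 1.22% and cysteine 0.0379% against 0.157%. Each had the smallest exact sign-flip p of 0.031, which became 0.125 after adjustment over the 20 residues, so none passed.

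Charge differed little. The net charge, lysine and arginine minus aspartate and glutamate over the whole loop, averaged -0.973 ± 0.212 in long and -0.826 ± 0.0488 in middle loops. The difference of -0.147 ± 0.197 had both signs among libraries (lower in 4 of 6, exact sign-flip p = 0.156, adjusted 0.234). Acidic residues numbered 1.52 ± 0.110 per long and 1.29 ± 0.0329 per middle loop, and basic ones 0.548 and 0.467, counts that a longer loop can raise on its own. Compared within each TRBJ segment, so that J residues were balanced, the difference in net charge was -0.293 (lower in long loops in 6 of 6, exact sign-flip p = 0.031), again as a sum over loops of unequal length. A net negative charge was carried by 64.7% of long and 64.2% of middle loops with the pair merged.

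Among 153 V and J segments of both chains, edgeR's quasi-likelihood test with a library block called 15 (9.8%) at a Benjamini-Hochberg adjusted p under 0.05. Because V and J bases count towards the length by which loops were chosen, beta segment usage is not independent of that choice. DESeq2 called 8, and without LNP-Ctrl 3 edgeR called 9. Of the 15, 6 (3.92%) were higher in long loops and 9 (5.88%) lower. TRBV supplied 1 higher and 3 lower of 22, TRBJ 3 and 4 of 12, TRAV 2 and 2 of 76 and TRAJ 0 of 43. The split depended on the scaling, with 3 higher and 18 lower under TMM scaling and 1 and 7 with DESeq2. Their scalings moved the median log2 difference over all segments from -0.08 to -0.55 and -0.52, and values below are on the unshifted scale of clonotype shares.

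TRBV2 rose most clearly among V segments. It was used by 14.04%, 10.1% and 15.5% of long clonotypes in the LNP-Ctrl libraries and by 21.1%, 25.0% and 18.2% in the LNP-P20-mAb libraries. In middle loops the shares were 4.07%, 4.12% and 4.89%, and 3.39%, 2.01% and 3.79%. Every long share lay above every middle share. The log2 change was 1.83 ± 0.25 (SE) with an edgeR adjusted p of 1.86e-10, and 1.82 with LNP-P20-mAb 1 and 2 merged. Counted by cells, where large clones dominate, it was 2.15 with an edgeR adjusted p of 0.216.

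The called TRBV segments differed in the length of their consensus V starts, which are shown with the bases held by most chains of that segment.
TRBV2: tgtgccagcagccaaga
TRBV10: tgtgccagcagct
TRBV20: tgtggtgctaggg
TRBV29: tgtgctagcagtt
The consensus start of TRBV2 had 17 bases, as many as any TRBV segment. Those of TRBV10, TRBV20 and TRBV29 had 13, the fewest. TRBV29 fell from 5.07% ± 1.29 of middle to 0.772% ± 1.41 of long clonotypes (3 in all), a log2 change of -2.30 ± 0.59 (SE, edgeR adjusted p = 0.00326). TRBV20 was used by 1 long clonotype (log2 -2.93 ± 0.94, edgeR adjusted p = 0.0233) and TRBV10 by 5 (-1.61 ± 0.51, 0.0267). The calls of the last 2 were lost when single libraries were left out. For TRBV20 the edgeR adjusted p was 0.146, 0.05002 and 0.0626 without LNP-Ctrl 2, LNP-Ctrl 3 and LNP-P20-mAb 3. For TRBV10 it was 0.0927, 0.0548, 0.3001 and 0.0632 without LNP-Ctrl 1, 2 and 3 and LNP-P20-mAb 3.

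TRBV5, TRBV30 and TRBV31 had V starts of the same lengths and were not called. TRBV5, with the same 17 bases as TRBV2, was at 9.47% of long and 7.71% of middle clonotypes (log2 0.56 ± 0.25, edgeR adjusted p = 0.186, higher in 5 of 6 libraries). TRBV31, with 13 bases, was at 2.04% and 3.81% (log2 -0.52 ± 0.42, edgeR adjusted p = 0.511, lower in 5 of 6). TRBV30, also with 13 bases, had 0 long and 33 middle clonotypes (edgeR adjusted p = 0.321). Whether V length bears on these values was not tested. The Vβ8 family, TRBV13-1 (log2 -0.05), TRBV13-2 (-0.34) and TRBV13-3 (-0.08), and the Vβ5 family, TRBV12-1 (-0.90) and TRBV12-2 (-0.23), had 0 of 5 members called by edgeR on the unshifted scale or by DESeq2, with 1 (TRBV12-1) at an unadjusted edgeR p under 0.05. With TMM scaling edgeR called TRBV12-1 (log2 -1.43, adjusted p = 0.00538). A combined entry, TRBV12-2+TRBV13-2, had the consensus V start of TRBV13-2 and not that of TRBV12-2. It held 44 long and 753 middle clonotypes (log2 0.48 ± 0.23, edgeR adjusted p = 0.202), against 3 and 94 under TRBV13-2 alone. The TRBV13-2 value of -0.34 thus rests on few clonotypes and has the opposite sign, so values of those segments are uncertain.

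J segments differed as well. The J ends of the segments with the strongest calls are shown.
TRBJ2-7: tatgaacagtacttc
TRBJ2-2: aacaccgggcagctctacttt
TRBJ2-3: agtgcagaaacgctgtatttt
TRBJ2-4: gtcaaaacaccttgtacttt
TRBJ1-2: aaactccgactacaccttc
TRBJ2-7 had the shortest consensus J end, at 15 bases. It fell from 19.4% ± 1.74 of middle to 3.40% ± 3.47 of long clonotypes (log2 -1.86 ± 0.28, edgeR adjusted p = 3.77e-09). Its long share was 0 in LNP-P20-mAb 1 and 2 and at most 7.87% elsewhere. TRBJ2-4, of 20 bases, rose from 8.30% ± 0.226 to 19.5% ± 3.58 (log2 1.18 ± 0.21, edgeR adjusted p = 1.12e-06, 6 of 6 libraries). TRBJ2-2 and TRBJ2-3, of 21 bases each, rose by log2 1.24 ± 0.26 and 1.04 ± 0.21, the latter in 5 of 6 libraries. DESeq2 called none of these 3 risers, with log2 changes of 0.60, 0.61 and 0.41 for TRBJ2-4, TRBJ2-2 and TRBJ2-3.

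In the first J cluster 3 of 6 segments fell. TRBJ1-2, of 19 bases, was used by 0 of 329 long and 483 of 7811 middle clonotypes, at least 6.78-fold lower when the limit of 3 clonotypes over all long ones is used. TRBJ1-1, also of 19 bases, fell from 9.06% ± 1.32 to 1.303% ± 1.51 (log2 -2.38 ± 0.42, edgeR adjusted p = 1.12e-06). TRBJ1-5, of 20 bases, was used by 1 long clonotype (log2 -3.15 ± 0.90, edgeR adjusted p = 0.00777, or 0.107 without LNP-Ctrl 3). TRBJ1-3, with the longest consensus J end at 22 bases, had a log2 difference of -1.25 ± 0.45 (edgeR adjusted p = 0.079). It was called with TMM scaling (-1.71, edgeR adjusted p = 0.00447), against loops of 14 only (-1.45, 0.01997) and with barcodes of 2 TRB chains kept (-1.36, 0.039995), which makes 4 of the 6. TRBJ1-4 (0.23), TRBJ1-6 (0.15), TRBJ2-1 (0.43) and TRBJ2-5 (0.08) were not called.

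**Figure D4:**
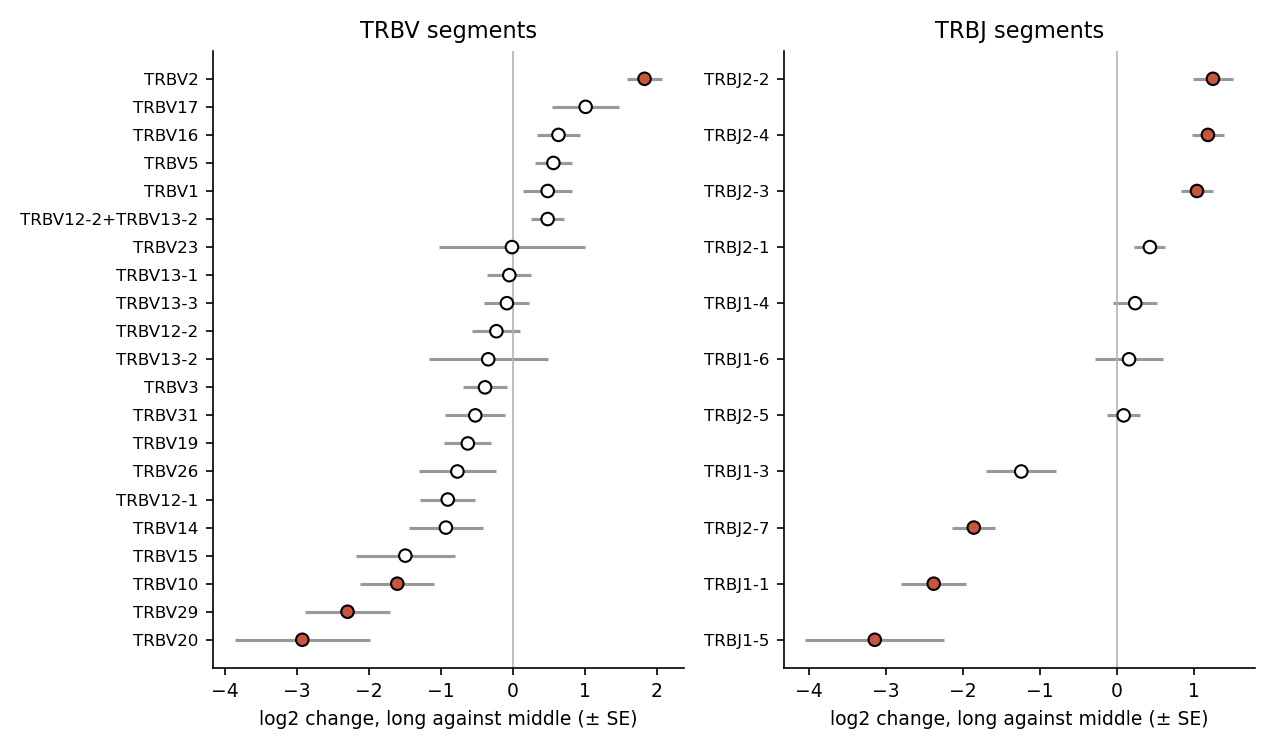
Log2 change in clonotype share between long and middle loops (x axis, bars 1 SE) for TRBV and TRBJ segments with at least 1 long clonotype (TRBJ1-2 and TRBV30 had 0), filled where the edgeR adjusted p was under 0.05. TRBV2 stands alone at the top of the V segments at 1.83, and TRBJ2-2, TRBJ2-4 and TRBJ2-3 lead the J segments.

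On the alpha chain, which the choice by beta length did not use, TRAV9N-3 was more frequent with long beta loops. It was carried by 8.77%, 6.74% and 6.19% of long clonotypes in the LNP-Ctrl libraries and by 10.5%, 8.33% and 5.45% in the LNP-P20-mAb libraries. Middle clonotypes carried it at 2.61%, 2.73% and 1.63%, and 4.84%, 4.35% and 3.07%, below every long share. The log2 change was 1.41 ± 0.35 (SE, 23 long clonotypes, edgeR adjusted p = 0.00163). The change was smaller under other scalings and the call was lost, at 0.85 with TMM scaling (edgeR adjusted p = 0.087) and 0.76 with DESeq2 (adjusted p = 0.269). Counted by cells it was 0.47 (edgeR adjusted p = 0.828).

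The other TRAV calls involved few long clonotypes, and some of these segments have near-identical copies. TRAV6-1 had 7 long clonotypes (log2 1.97 ± 0.68, edgeR adjusted p = 0.0413), and the call was lost when any 1 library was left out or the shared pair merged (edgeR adjusted p 0.0726 to 0.250). TRAV5-4 was carried by 0 of 329 long clonotypes, at least 2.32-fold below middle loops (edgeR adjusted p = 0.0044, or 0.0707 without LNP-Ctrl 3), and its copy TRAV5N-4 by 2. With the copies summed TRAV5-4 was still called (log2 -2.34, edgeR adjusted p = 0.0235). TRAV14-3 was also at 0 (at least 1.77-fold lower, edgeR adjusted p = 0.0233, or 0.0816 and 0.138 without LNP-Ctrl 2 and 3), but its copy TRAV14N-3 was in 12, and with the copies summed the log2 difference was -0.25 (edgeR adjusted p = 0.835).

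The alpha loops did not differ detectably in length. TRA CDR3 loops averaged 13.6, 13.8 and 13.7 amino acids beside long TRB loops in the LNP-Ctrl libraries and 13.7, 13.3 and 13.7 in the LNP-P20-mAb libraries. Beside middle loops they averaged 13.6 to 13.7. The difference of -0.063 ± 0.174 amino acids had both signs (exact sign-flip p = 0.5). A second TRA chain was present in 13.2% ± 2.81 of long and 12.5% ± 1.21 of middle clonotypes (exact sign-flip p = 0.594).

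Expansion did not differ detectably between long and middle loops. Clonotypes of 2 or more cells made up 7.02%, 6.74% and 2.06% of long clonotypes in the LNP-Ctrl libraries and 15.8%, 25.0% and 12.7% in the LNP-P20-mAb libraries. The middle shares were 8.91%, 6.46% and 3.58%, and 20.3%, 24.1% and 12.8%. Libraries differed from each other more than the length classes did within them (difference -1.14 ± 1.99 percentage points, exact sign-flip p = 0.219). With LNP-P20-mAb 1 and 2 merged the difference was -2.38 ± 3.65 points (lower in long loops in 4 of 5, exact sign-flip p = 0.1875). In the merged pair, 10.7% of long and 19.4% of middle clonotypes had 2 or more cells. Compared within each TRBJ segment the difference was -2.97 points (lower in long loops in 6 of 6, exact sign-flip p = 0.031). With clones of 3 or more cells the difference was 1.11 points in the other direction (exact sign-flip p = 0.4375).

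Of the 329 long clonotypes, 304 were single cells, 14 had 2 to 4 cells and 11 had 5 or more, of which 3 had 20 or more. These counts take clones shared by LNP-P20-mAb 1 and 2 once in each library. The TRBV1, TRBJ2-5 clone thus enters with 216 and with 95 cells, and a TRBV2, TRBJ2-1 clone with 10 and with 13. Expanded clones held 24.3%, 20.2% and 26.4% of long-loop cells in the LNP-Ctrl libraries and 93.5%, 92.9% and 40.0% in the LNP-P20-mAb libraries. For middle loops the shares were 51.7%, 28.3% and 9.66%, and 85.0%, 83.4% and 61.5%. The direction of the difference varied between libraries. Long TRB chains had slightly fewer UMIs, 18.2 ± 2.60 against 19.3 ± 2.56 per clonotype (lower in 6 of 6, exact sign-flip p = 0.031), and whether this bears on the calls was not tested.

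Long loops were seldom found in more than 1 sample. With the pair merged, 2 of 324 long TRB amino acid receptors (0.617%) occurred in 2 or more samples, against 114 of 7523 middle ones (1.52%), a difference not tested. One was a TRBV19, TRBJ2-4 receptor of 17 amino acids, in LNP-Ctrl 2 and LNP-P20-mAb 3. The other was a TRBV2, TRBJ2-2 receptor of 18 amino acids, in LNP-Ctrl 1 with TRAV16N and in LNP-P20-mAb 3 with its near-copy TRAV16. Their bases are shown because the same residues were written with different bases, with the TRBD2 stretch in capitals.
TRBV19 and TRBJ2-4, LNP-Ctrl 2: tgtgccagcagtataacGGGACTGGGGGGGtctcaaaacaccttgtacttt
TRBV19 and TRBJ2-4, LNP-P20-mAb 3: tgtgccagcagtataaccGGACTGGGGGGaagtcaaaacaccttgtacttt
TRBV2 and TRBJ2-2, LNP-Ctrl 1: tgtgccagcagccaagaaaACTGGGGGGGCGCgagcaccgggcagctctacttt
TRBV2 and TRBJ2-2, LNP-P20-mAb 3: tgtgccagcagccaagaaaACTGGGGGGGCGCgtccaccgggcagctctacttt
Each matched 11 to 13 bases of the TRBD2 consensus. In all, 7 of 48 long TRBV2 clonotypes carried TRAV16 or a copy (14.6%), against 31 of 278 other long clonotypes (11.2%) and 28 of 324 middle TRBV2 clonotypes (8.64%), values given without a test.

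The features also differed by length below the threshold of 17. The TRBD2 call was at 7.11%, 11.4%, 20.3%, 33.3% and 48.3% of loops of 14, 15, 16, 17 and 18 amino acids with the pair merged. Adjacent glycines were at 27.2%, 36.5%, 47.6%, 58.3% and 70.7% and TRBV2 at 3.39%, 5.92%, 7.58%, 13.5% and 17.2% of the same lengths. TRBJ2-7 went the other way, from 20.2% at 14 to 6.77% at 16 and 5.56% at 17. The 16 loops of 19 or more had a TRBD2 call in 31.3%, a value that rests on 5 clonotypes. Clones of 2 or more cells took 7.90%, 7.68%, 6.36%, 6.35% and 8.62% of loops of 14 to 18 amino acids.

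**Figure D5:**
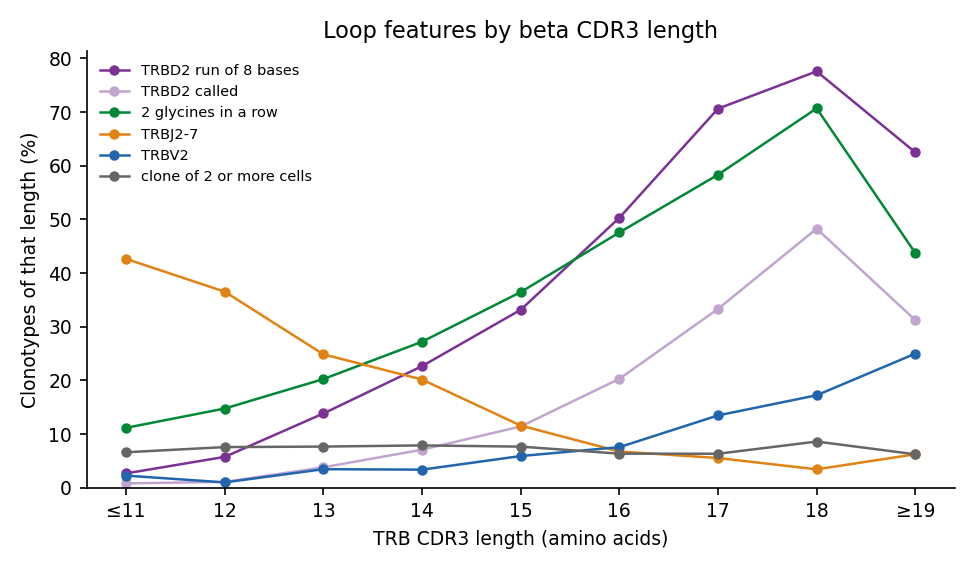
Percent of clonotypes of each beta CDR3 length (x axis, amino acids) with each feature, with LNP-P20-mAb 1 and 2 merged. The TRBD2 run, TRBD2 call, adjacent glycines and TRBV2 are more frequent from 14 to 18 residues while TRBJ2-7 is less frequent, and expanded clones lie between 6.25% and 8.62% at all lengths.

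A difference between treatments in what set long loops apart was not detected. The long minus middle difference in TRBD2 calls was 28.4 ± 3.46 percentage points over the LNP-Ctrl libraries and 15.9 ± 18.1 over those of LNP-P20-mAb (n = 3 each, exact permutation p = 0.4 for the difference). For the centre glycine share it was 2.29 ± 2.02 and 3.72 ± 3.48 points (p = 0.6, same permutation test). The 6 planned measures had exact permutation p of 0.4 to 0.9, and 0.9 after adjustment. In edgeR the interaction of loop length with treatment was called for 0 of 153 segments (0% called, lowest adjusted p 0.956), with 2 at an unadjusted p under 0.05 and 0 called by DESeq2.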

How the data were processed

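Chains of the 6 receptor libraries were assembled and annotated with Cell Ranger 8.0.1, per the submitters' processing notes, and the deposited tables list each chain with its segments, CDR3 and UMI counts. The V(D)J reference was not given in the sources used here. Barcodes with another TRB chain, or with more than 2 TRA chains, were dropped. Bases at each end of a loop that matched the consensus of its V or J segment (bases held by at least 50% of chains) were assigned to V or J, and the rest formed the centre. D consensus sequences came from the loops themselves, and their ends may include bases that are not part of the D segment.

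Differences between length classes were taken within libraries and tested with exact two-sided sign flips (64, smallest p 0.031), treatments with exact permutations. Segments with 30 or more clonotypes were tested with edgeR 4.0.16 (R 4.3.3, DESeq2 1.42.0 as alternative) on numbers of clonotypes per segment, with the clonotypes of each library and length class as library size. Other steps used Python 3.11.15.

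The loops, lists and tests were chosen with earlier results of these data known. Named segments are all V and TRAJ segments called, the 12 TRBJ segments and the Vβ8 and Vβ5 families. TRBV5, TRBV30 and TRBV31 were added for the length of their V starts. Named clones are each library's largest long clone, those of 20 or more cells, those in 2 or more samples and each library's longest loop. TRAV names with D or N mark near-identical copies, between which chains may be split. Intervals and limits cover counting error only.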

Additional observations from a re-analysis of the deposited data

How the results depend on the processing

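Other settings changed the size of the D and glycine differences more than their direction, and with 5 libraries or samples the smallest sign-flip p is 0.0625, so leaving 1 out cannot pass 0.05. The TRBD2 difference of 22.2 percentage points was 13.9 with cells counted, 22.1 with barcodes of 2 TRB chains kept, 25.9 with LNP-P20-mAb 1 and 2 merged, 22.3 against loops of 14 only and 24.2 in TRBJ2 loops, and 19.4 to 26.5 with 1 library left out. For loops without a D call these were -10.9, -18.1, -22.2, -20.3, -19.05 and -23.0 to -16.8, and -19.8 in single-cell clonotypes. For centre glycine the values were 7.59 (cells), 2.60 (merged), 3.48 (14 only), 2.77 (TRBJ2), 1.19 (long from 18), 2.55 (from 16), 0.460 (fixed trimming) and 2.07 to 3.55. Signs reversed within bins of centre length, at -5.29 (0.957 without LNP-P20-mAb 2), 10.97 and -0.149 (-1.05 to 0.752 with 1 library left out), and for Asp-Trp-Gly (-6.66) and Thr-Gly-Gly (-6.55). Within TRBJ segments the net charge difference was -0.293 and the expanded difference -2.97, both at the smallest p. The TRA length difference was 0.119 with cells and 0.0458 with long from 16, and the expanded difference 1.11 for clones of 3 or more cells. The treatment difference in long share was -0.160 for loops from 18 and -0.755 with cells and no largest clone; otherwise it kept its sign. Leave-one-out ranges were 0.229 to 0.760 for it, -0.203 to -0.103 for charge, -0.108 to -0.00472 for TRA length and -1.55 to -0.455 for expansion.

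The 15 segment calls became 8 with DESeq2, 9 with cells counted, 4 with long from 18 and 9 to 14 with 1 library left out, the 9 without LNP-Ctrl 3, and the interaction count was 0 throughout. Other values changed sign, among them the called TRBJ2-3 and TRAV6-1. With long from 16 these were TRBD1 calls (1.86), TRBD1 runs (3.26) and TRBV12-1 (0.25), and with cells TRBD1 runs (1.35), 3 glycines in a row (-4.21), TRBJ1-6 (-0.36), TRBJ2-1 (-0.49) and TRBJ2-3 (-0.56). With long from 18 they were 3 glycines (-0.0826), basic residues (-0.0342), TRAV6-1 (-4.91), TRBJ2-5 (-0.26), TRBV13-1 (0.059) and TRBV13-3 (0.086). DESeq2 and TMM reversed TRBJ1-4 (-0.25, -0.20), TRBJ1-6 (-0.33, -0.28), TRBJ2-1 (-0.21, -0.085) and TRBJ2-5 (-0.52, -0.37). Loops of 14 only reversed TRBJ2-5 (-0.036) and TRBV13-1 (0.13). With 1 library left out, ranges crossed 0 for TRBJ1-6 (-0.079 to 0.42), TRBJ2-5 (-0.19 to 0.32), TRBV13-1 (-0.39 to 0.21), TRBV13-2 (-5.45 to 0.21) and TRBV13-3 (-0.29 to 0.055). The causes were not tested.

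Libraries with the same replicate number did not deviate together in segment usage (correlations of deviations over 31 segments -0.325, -0.0243 and -0.0455). Segment usage in 3 libraries per treatment cannot decide whether the numbers pair them, and the main treatment test did not pair them. With the replicate number as a block the long share differed by 0.519 with a smallest possible p of 0.25, which it reached. LNP-P20-mAb 1 and 2 hold 19 and 12 long clonotypes, so a feature absent there could still be carried by 15.8% and 25.0%.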
